A study of Mus musculus with 16 samples.

Results

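Voltage-gated potassium (Kv) channels are assembled from 4 alpha subunits around a pore, and the 36 alpha subunit genes described here are a list drawn up for this comparison out of the 45706 genes of the deposited count table. The list was selected on the paired contrast of 24 against 30 months in these same libraries, so the age changes of its members are given as a description and no test of a single member is drawn from them. The libraries come from ear skin of 8 male C57BL/6J mice, an inbred strain. Each animal gave a clip of one ear at 24 months and a clip of the other ear at 30 months, which makes 8 pairs and 16 libraries. No group carries a treatment or an altered gene, the labels call the earlier biopsy young and the later one old, and their exact ages run from 23.8 to 24.4 and from 29.0 to 30.1 months. The 24-month biopsy is therefore already that of an aged mouse, and age cannot be told apart from the ear that was clipped or from anything else that changed between both sampling times.

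Kv channels open when the membrane is depolarized and let potassium out of the cell, which ends the action potential and sets how fast a cell can fire. Subunits of the Kv1, Kv2, Kv3, Kv4 and Kv7 families and of the EAG, ERG and ELK group build working channels on their own, whereas those of the Kv5, Kv6, Kv8 and Kv9 families are silent alone and alter the channels they form with Kv2 subunits. In ear skin these channels are known from the sensory nerve fibres and their sheaths, from striated and smooth muscle, from T cells and from keratinocytes. A whole biopsy mixes parts of all of these, and its RNA does not show which cell a read came from. The roles named below for single genes are background and do not place their RNA in a cell. Fewer cells of a type and less RNA per cell cannot be told apart in such RNA either.

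Reads counted on genes ranged from 22967222 to 36162431 per library (median 28877001 at 24 months and 29138399 at 30 months). Keratinocyte markers summed to 19293 to 31822 CPM (reads on the gene scaled to a common library size of reads on genes, with TMM factors) in every library, while 8 of the 9 neuron markers had a mean under 1 CPM and their sum was 6.72 to 18.5 CPM. The second biopsy of mouse 50 stood apart, with 219 CPM of T cell markers against 33.8 to 63.8 in the other 15 libraries, 1197 CPM of macrophage markers and 13993 CPM of fibroblast markers. In the paired fit over the 21526 genes that passed the filter on low counts, 0 genes (0% called) differed between the ages at an adjusted p under 0.05 (Benjamini-Hochberg adjustment of edgeR's quasi-likelihood p-values). Before adjustment, 1047 genes (4.86%) were higher and 1546 genes (7.18%) lower with a p under 0.05. DESeq2's Wald test on the same pairs called 240 genes.

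The promoters printed here belong to members on which the results turn: Kcnc1 and Kcnq5, whose level followed the muscle marker RNA of the biopsies, and Kcng4, the member with the largest age difference. RefSeq starts of transcription on GRCm38.p6 were found for 25 of the 36 members, and the 250 bases before the start are printed 5′ to 3′. Capitals mark the E-box CANNTG, a motif that reads the same on both strands and is bound by basic helix-loop-helix factors, the myogenic ones among them.
Kcnc1, chr7:46396218-46396467, plus strand: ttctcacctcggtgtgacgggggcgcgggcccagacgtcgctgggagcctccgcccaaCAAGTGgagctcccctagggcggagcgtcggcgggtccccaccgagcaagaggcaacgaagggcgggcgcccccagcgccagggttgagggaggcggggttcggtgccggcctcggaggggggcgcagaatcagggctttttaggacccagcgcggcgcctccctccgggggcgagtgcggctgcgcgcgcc
Kcnq5, chr1:21961943-21962192, minus strand: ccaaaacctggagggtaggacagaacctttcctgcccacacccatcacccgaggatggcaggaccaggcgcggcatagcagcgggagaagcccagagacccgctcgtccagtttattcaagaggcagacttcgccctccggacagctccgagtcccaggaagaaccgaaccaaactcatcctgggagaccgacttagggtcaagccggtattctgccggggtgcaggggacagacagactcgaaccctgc
Kcng4, chr8:119635681-119635930, minus strand: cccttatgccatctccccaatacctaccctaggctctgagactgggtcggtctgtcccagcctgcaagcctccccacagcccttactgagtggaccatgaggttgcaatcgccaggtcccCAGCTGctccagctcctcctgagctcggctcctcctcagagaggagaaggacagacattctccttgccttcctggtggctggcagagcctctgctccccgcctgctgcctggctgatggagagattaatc
The Kcnc1 and Kcng4 windows each hold 1 E-box and this Kcnq5 window holds 0, where 66.2% of the 32851 RefSeq promoters of the same length hold at least 1. The Kcnc1 promoter is rich in CG pairs, with 30 against a median of 6 over all promoters, whereas the Kcng4 promoter has 4. For Kcnq5 the printed window, which ends where the GENCODE gene begins, has 14, and that of a second RefSeq start has 3 and no E-box. The windows of Kcna7, Kcnc4 and Kcnh2, which followed muscle as well, hold 3, 1 and 0 E-boxes, beside a median of 1 over all promoters. They are not printed, since all 250 bases lie inside the gene as GENCODE M21 draws it. A match is a description of letters and not of a bound site.

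Of the 36 members, 30 had a mean above 0.1 CPM over the 16 libraries, and 25 of these were above it in every library. A level of 0.1 CPM stands for 2.3 reads in the shallowest and 3.62 in the deepest library. Just inside this limit lay Kcnv1 with 0.108 CPM and just outside it Kcnh8 with 0.0833 CPM. The 6 members under it were Kcna10, Kcnb2, Kcnh5, Kcnh8, Kcns2 and Kcnv2, with means of 0.0103 to 0.0833 CPM, and 5 of them had 0 reads in at least 1 library. Kcnh5, a subunit of the EAG type, had 5 reads over all 24-month libraries and 0 over all 30-month libraries, which allows a level of up to 0.013 CPM there from counting error alone.

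Per length of exon, the family was dominated by few genes. Between genes, levels are compared here only as RPKM (CPM divided by the merged exon length in kilobases). The mean RPKM of all 36 members added up to 29.5, of which the 9 members above 1 RPKM held 85.1% and Kcna1 alone 21.2%. A further 16 members lay between 0.1 and 1 RPKM and 11 under 0.1. By family, Kv1 held 44.2% of the sum, Kv3 20.6%, the EAG, ERG and ELK group 12.8% and Kv9 11.5%, while Kv4, Kv5, Kv6 and Kv7 held between 1.58% and 3.51% each. The only Kv2 gene on the list, Kcnb2, held 0.0111%, and the Kv8 pair held 0.0918%.

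**Figure D1:**
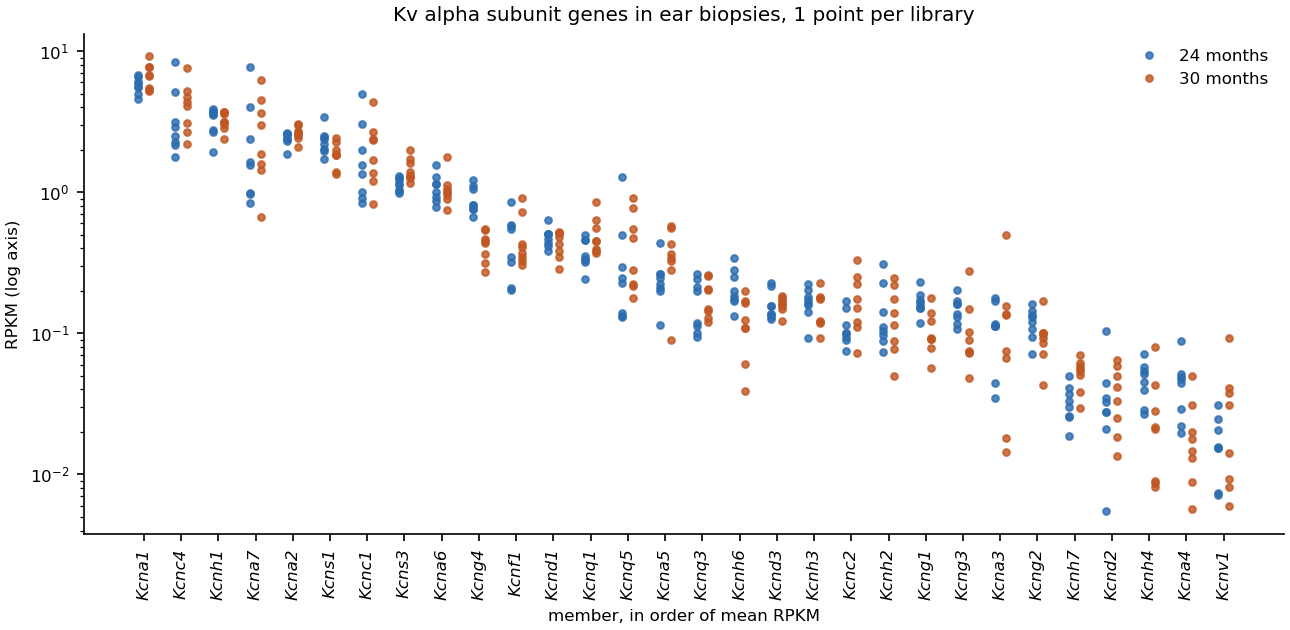
RPKM (log axis) of the 30 members with a mean above 0.1 CPM, in order of their mean, with 1 point for each of the 16 libraries, blue at 24 and orange at 30 months. Kcna1 leads with a mean of 6.25 RPKM. The points of Kcnc4, Kcna7, Kcnc1 and Kcnq5 spread widely at both ages, and those of Kcng4 form separate clouds at the 2 ages.

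Kcna1, which encodes Kv1.1, the channel that sits beside the nodes of myelinated axons, had 21.8 to 32.6 CPM at 24 months (median 27.5) and 25 to 43.8 CPM at 30 months (median 32.1). Its log2 change was 0.21 with a standard error of 0.11, and 5 of 8 mice were higher at 30 months. Kcna2, the Kv1.2 subunit that joins Kv1.1 in axons, ranged from 22.4 to 31.0 CPM (median 29.7) and then from 24.9 to 36 CPM (median 31.1), with a change of 0.12 ± 0.08 (SE) and 6 mice higher. Kcna2 was the steadiest of the 30 detected members, with a standard deviation of 0.17 in log2 CPM over the 16 libraries. Schwann cell markers summed to 479 to 723 CPM in the same libraries. Neither slope on the Schwann cell level passed the threshold in a fit with the mouse and the age held ( 0.20 ± 0.52 for Kcna1 and 0.68 ± 0.35 for Kcna2, SE, log2 CPM per doubling, adjusted p = 0.999 and 0.872 from edgeR). In that fit 1 gene of 21526 (0.00465%) and 0 of the 25 members tested were called.

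Kcna6, which encodes Kv1.6 and belongs to the same axonal group, had 4.68 to 9.23 CPM at 24 months (median 6.37) and 4.41 to 10.7 CPM at 30 months (median 5.98). It was higher in 4 mice and lower in 4, with a change of -0.03 ± 0.15 (SE). An antisense gene covers 39.6% of its exon bases and had a mean of 0.75 reads against 187 for Kcna6. The kit does not mark the strand, so reads over the shared bases may have been counted for neither gene. The 0.75 reads therefore do not show how many fell there, and the level of Kcna6 may be too low. Apart from Kcna7, described with the muscle genes, the remaining Kv1 genes were sparse. Kcna5, the Kv1.5 subunit of heart and vessel muscle, ranged from 0.328 to 1.26 CPM (median 0.673) at 24 months and from 0.257 to 1.65 CPM (median 1.01) at 30 months. Kcna3, the Kv1.3 subunit of T cells, had 2 to 10 reads at 24 months, 0.0656 to 0.337 CPM with a median of 0.214. At 30 months it had 0.0275 to 0.945 CPM with a median of 0.200. Its highest value, 30 reads, came from the second biopsy of mouse 50, the library with the most T cell marker RNA, and the next highest at that age was 0.298 CPM. Whether T cells gave that value was not tested. Kcna4, the fast inactivating Kv1.4 subunit, was lower in 7 of 8 mice, at 0.0942 to 0.425 CPM (median 0.222) and then 0.0275 to 0.241 CPM (median 0.0784), but these are 50 reads in all 24-month libraries and 22 in all 30-month libraries, and it did not pass the filter on low counts.

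The members with the widest spread include several known from skeletal muscle. Kcna7, which encodes Kv1.7 and is expressed in striated muscle, had 1.84 CPM in mouse 13 at 24 months and 13.5 at 30 months. The same pair of values was 3.39 and 7.99 in mouse 14, 2.1 and 6.53 in mouse 21, 5.24 and 1.45 in mouse 29, and 16.9 and 3.13 in mouse 43. It was 8.82 and 9.89 in mouse 50, 2.16 and 4.07 in mouse 64, and 3.55 and 3.45 in mouse 75. Mice 13 and 43 thus moved strongly in opposite directions and mice 50 and 75 hardly at all. Both ages covered nearly the same range, with medians of 3.47 and 5.30 CPM, and the change of 0.35 ± 0.55 (SE) was smaller than its error, with 5 mice higher.

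Kcnc1, the gene of Kv3.1, a channel of fast-spiking cells, went from 7.90 CPM at 24 months to 41.4 at 30 months in mouse 13, from 12.7 to 25.3 in mouse 14 and from 8.56 to 22.5 in mouse 21. It went from 18.8 to 7.76 in mouse 29, from 47.2 to 12.9 in mouse 43 and from 28.8 to 22.1 in mouse 50. In mouse 64 it was 9.57 and 11.3, and in mouse 75 14.8 and 15.9. The mice at the extremes are those of Kcna7, and the medians of the ages were 13.7 and 19.0 CPM, with a change of 0.19 ± 0.43 (SE) and 5 mice higher.

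Kcnq5, which encodes Kv7.5, a subunit of the slow M-type current that is also found in muscle, had 1.02 CPM at 24 months and 7.03 at 30 months in mouse 13, 1.89 and 4.19 in mouse 14, and 0.998 and 3.63 in mouse 21. It had 2.27 and 1.65 in mouse 29, 9.92 and 1.38 in mouse 43, and 3.81 and 5.92 in mouse 50. In mouse 64 it had 1.08 and 1.71, and in mouse 75 1.74 and 2.17. The highest value at 24 months again came from mouse 43 and that at 30 months from mouse 13, and the medians were 1.82 and 2.90 CPM. Kcnc4, the Kv3.4 subunit, which forms a skeletal muscle channel with an accessory subunit, ranged from 6.56 to 30.6 CPM at 24 months (median 9.88, highest in mouse 43) and from 8.00 to 28.0 CPM at 30 months (median 15.5, highest in mouse 13). Its change was 0.38 ± 0.35 (SE), with 6 mice higher.

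The 12 skeletal muscle markers, contractile and calcium-handling genes such as Acta1 and Ckm, summed to 1017 to 12571 CPM at 24 months and to 1450 to 9809 CPM at 30 months. Mouse 13 went from 1140 to 9809 and mouse 43 from 12571 to 1450, so muscle marker RNA differed between biopsies with no direction common to all mice, although 6 of 8 mice had more at 30 months. The slope of each gene on this level, with the mouse and the age held, is not the contrast that chose the members. It was fitted over all genes after these members had been seen to follow muscle genes in the same libraries, so the slopes describe that observation and are no independent test of it. At an adjusted p under 0.05, 691 of 21526 genes (3.21%) had a positive slope and 44 a negative one, and among the 25 members tested 5 had a positive slope and 0 a negative one (edgeR's quasi-likelihood test).

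In log2 CPM per doubling of the muscle level, the slope was 0.84 ± 0.07 (SE) for Kcnq5, 0.84 ± 0.11 for Kcna7, 0.66 ± 0.09 for Kcnc1 and 0.56 ± 0.07 for Kcnc4. Kcnh2, which encodes ERG1, the channel of the rapid delayed rectifier current of the heart, followed with 0.47 ± 0.09. All 5 slopes lay under 1, the value at which a gene doubles with each doubling of muscle RNA. With any 1 mouse left out they were 0.79 to 0.88 for Kcnq5, 0.76 to 1.06 for Kcna7, 0.58 to 0.90 for Kcnc1, 0.51 to 0.61 for Kcnc4 and 0.40 to 0.51 for Kcnh2. The number past the threshold was smaller without mouse 43, at 250 genes and 3 members (Kcna7, Kcnc1 and Kcnq5). Kcnc4 was not past it without mouse 43, nor Kcnh2 without mouse 14, 21 or 43. One library lay apart from the others, the second biopsy of mouse 29, where Kcna7 had 1.45 CPM at 2437 CPM of muscle markers while the second biopsy of mouse 64 had 4.07 CPM at 2393.

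**Figure D2:**
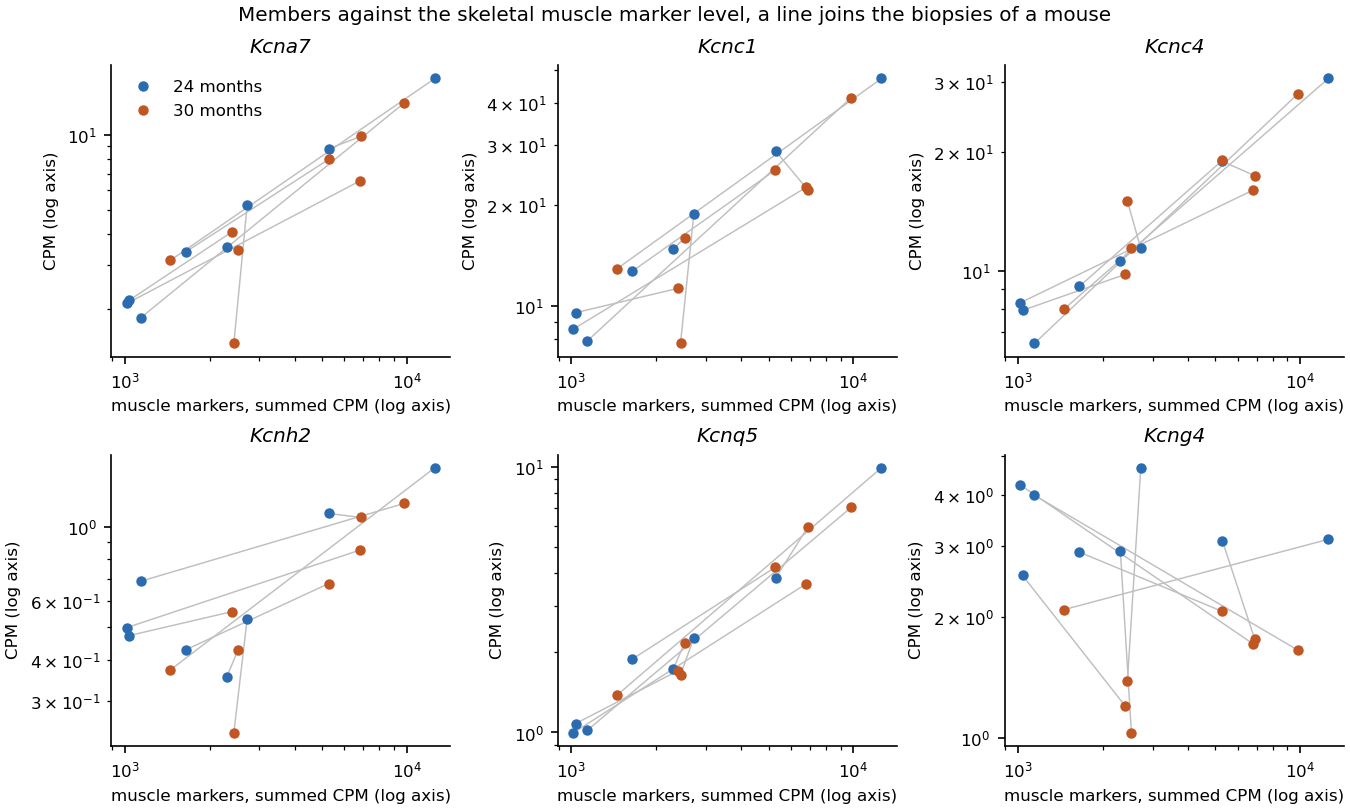
CPM of the 5 members with a positive slope, and of Kcng4 for comparison, against the summed CPM of the 12 skeletal muscle markers in the same library (both axes log). Blue points are 24-month and orange points 30-month libraries, and a line joins the biopsies of a mouse. For Kcna7, Kcnc1, Kcnc4 and Kcnq5 the points of both ages lie along a rising band, while the Kcng4 points separate by age, 2.53 to 4.68 against 1.03 to 2.08 CPM, at any muscle level.

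With the muscle level held as a covariate, the age change of Kcna7 moved from 0.35 to -0.29 ± 0.22 (SE). That of Kcnc1 moved from 0.19 to -0.29 ± 0.17, that of Kcnc4 from 0.38 to -0.06 ± 0.14 and that of Kcnq5 from 0.57 to -0.10 ± 0.14. That of Kcnh2 moved away from 0, from -0.03 to -0.40 ± 0.19. The changes of Kcnf1 (0.11 to -0.18 ± 0.27), Kcnq3 (0.17 to -0.06 ± 0.23) and Kcnd3 (0.02 to -0.01 ± 0.16), which had no slope past the threshold, also went below 0. That of Kcnh1 went from 0.00 to 0.07 ± 0.13. Apart from those of Kcna7, Kcnc1 and Kcnh2, these held values were smaller than their errors, so their signs are not read. Smooth muscle markers moved alongside, from 169 to 758 CPM at 24 months and from 216 to 830 CPM at 30 months, highest in the same libraries of mice 43 and 13, and their separate part was not tested. Kcnh2 itself had 0.355 to 1.51 CPM (median 0.515) at 24 months and 0.241 to 1.18 CPM (median 0.617) at 30 months.

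Kcng4 had the largest age difference of the family. It encodes Kv6.4, a silent subunit that shifts the inactivation of Kv2 channels and is known from sensory neurons. It had 4 CPM at 24 months and 1.65 at 30 months in mouse 13, 2.89 and 2.06 in mouse 14, and 4.24 and 1.71 in mouse 21. The values were 4.68 and 1.38 in mouse 29, 3.11 and 2.08 in mouse 43, and 3.08 and 1.76 in mouse 50. They were 2.53 and 1.20 in mouse 64 and 2.91 and 1.03 in mouse 75. All 8 mice were lower at 30 months, which held for 1.69% of all genes tested. The ages did not overlap, with 2.53 CPM as the lowest value at 24 months and 2.08 as the highest at 30 months. The share of all genes without such overlap was not computed, so nothing is read from it. The reads behind the Kcng4 values numbered 75 to 132 per library at 24 months and 28 to 64 at 30 months.

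The fitted log2 change of Kcng4 was -1.09 ± 0.16 (SE), and leaving out each mouse in turn kept it between -1.18 and -0.99. The paired edgeR fit did not call it, as it called no gene. DESeq2's Wald test did, where 162 of the 17352 genes with an adjusted p (0.934%) were called lower at 30 months, and so did edgeR without the term for the mouse, where it was the only lower gene called of 21526 (0.00465%). Since the members were chosen on this contrast, nothing is read from these calls. The slope of Kcng4 on the muscle level was -0.06 ± 0.09 (SE), not past the threshold, and with muscle held its change was -1.05. Other marker lists moved the same way as Kcng4. Pigment cell markers summed to 76.7 to 159 CPM at 24 months and to 27.2 to 102 CPM at 30 months, lower in 7 of 8 mice with 6 of 6 markers negative in the fit, and cartilage markers to 120 to 225 and then to 93.5 to 157 CPM, lower in 6 of 8. Fibroblast markers were lower in 6 of 8 mice (5 of 6 markers negative), and keratinocyte and hair follicle markers in 5 of 8 each (7 of 8 and 7 of 7 markers negative). The neuron markers were lower in 4 mice and higher in 4, and all 3 of them that could be tested were negative. Endothelial markers went the other way, from 99.1 to 148 CPM up to 109 to 300 CPM, higher in 6 of 8 mice. Smooth muscle markers were higher in 7 of 8 mice, and skeletal muscle, macrophage and fat cell markers in 6 of 8 each. Schwann cell and T cell markers were lower in 5 of 8 each, although 9 of 11 and 6 of 10 markers were positive. Sebaceous gland and mast cell markers were higher in 4 mice and lower in 4. The part of any of these lists in the change of Kcng4 was not tested.

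The other Kv6 genes were low and their changes had the same sign. Kcng1, the Kv6.1 subunit, had 0.531 to 1.04 CPM at 24 months (median 0.732) and 0.256 to 0.799 CPM at 30 months (median 0.416), from 182 and 113 reads in all. It was lower in 7 of 8 mice, all but mouse 13, with a change of -0.67 ± 0.19 (SE). Kcng3, the Kv6.3 subunit, had 0.361 to 0.678 CPM (median 0.5) and then 0.161 to 0.930 CPM (median 0.276), also lower in 7 of 8 mice, with a change of -0.53 ± 0.30 (SE). Here mouse 43 went the other way, from 0.439 to 0.930 CPM. Kcng2, the Kv6.2 subunit, rested on 87 and 66 reads, at 0.213 to 0.480 CPM (median 0.377) and 0.129 to 0.504 CPM (median 0.287). Kcng2 was lower in 5 of 8 mice and higher in 3. The median log2 change of the 4 Kv6 genes was -0.60, with 0 positive and 4 negative, beside 0.01 for all genes tested. The genes belong to a list chosen on this contrast, so no change of the Kv6 family is read from this median.

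**Figure D3:**
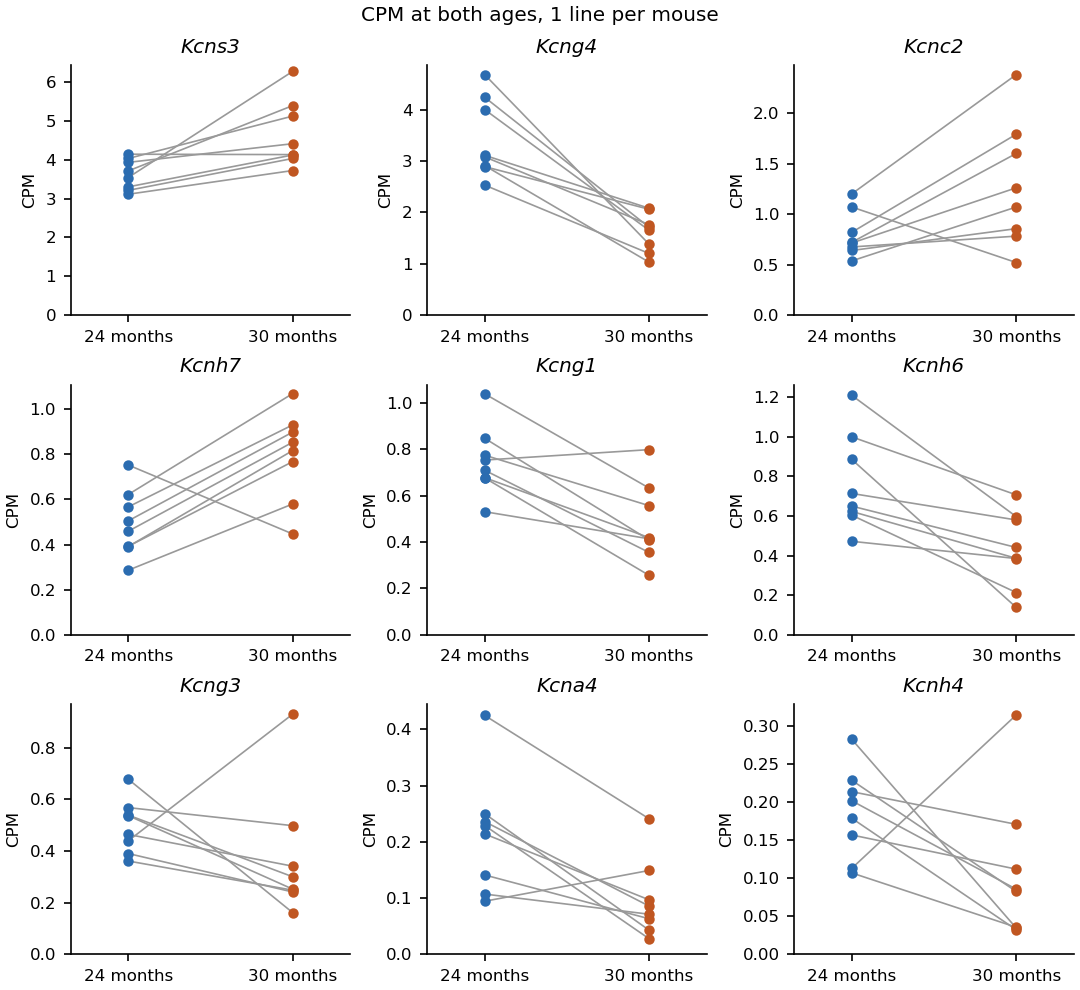
CPM at 24 and at 30 months of the 9 members that moved the same way in at least 7 of 8 mice, with 1 line per mouse and axes that start at 0. Kcng4 and Kcnh6 are lower at 30 months in 8 of 8 mice, Kcng1, Kcng3, Kcna4 and Kcnh4 in 7, and Kcns3, Kcnc2 and Kcnh7 are higher in 7. The levels of the bottom panels rest on few reads. The share of all genes that moved the same way in at least 7 of 8 mice was not computed. The count of 9 members is thus a description from which nothing is read.

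The electrically silent Kv9 and Kv5 genes split. Kcns1, the Kv9.1 subunit of sensory neurons, had 4.65 to 9.20 CPM at 24 months (median 6.21) and 3.63 to 6.55 CPM at 30 months (median 5.02). Its change was -0.31 ± 0.18 (SE) and 6 mice were lower. Kcns3, the Kv9.3 subunit, was in contrast higher in 7 of 8 mice, at 3.11 to 4.14 CPM (median 3.62) and then 3.72 to 6.27 CPM (median 4.27), with a change of 0.35 ± 0.11 (SE). The exception was mouse 43, with 4.14 and 4.13 CPM. Kcnf1, the Kv5.1 subunit, had 0.977 to 4.07 CPM (median 2.15) and 1.45 to 4.38 CPM (median 1.87), with 4 mice higher and 4 lower and a change of 0.11 ± 0.34 (SE). Kcnv1, the Kv8.1 subunit, had 19 reads at 24 months and 30 at 30 months, 0.0328 to 0.142 CPM (median 0.0714) and 0.0275 to 0.427 CPM (median 0.103).

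Among the genes related to the fly ether-a-go-go channel, Kcnh1, which encodes EAG1, was the most abundant, at 14.1 to 28.7 CPM at 24 months (median 26.0) and 17.6 to 27.1 CPM at 30 months (median 23.1). Its change was 0.00 ± 0.13 (SE), 3 mice higher and 5 lower. Kcnh6, the gene of ERG2, was lower in 8 of 8 mice, from 0.623 to 0.386 CPM in mouse 13, from 0.714 to 0.580 in mouse 14 and from 1.21 to 0.597 in mouse 21. It went from 0.886 to 0.138 in mouse 29, from 1 to 0.707 in mouse 43 and from 0.650 to 0.441 in mouse 50. In mouse 64 it went from 0.472 to 0.385 and in mouse 75 from 0.604 to 0.213. The ages overlapped, and the drop in mouse 29, from 25 to 4 reads, was far deeper than that in mouse 64, from 14 to 9. Its change was -0.87 ± 0.25 (SE), between -0.96 and -0.67 with each mouse left out. In the same mouse 29 pigment cell markers went from 159 to 27.2 CPM, and their part in Kcnh6 was not tested.

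Kcnh7, the gene of ERG3, went the other way, with 0.286 to 0.753 CPM at 24 months (median 0.482) and 0.447 to 1.07 CPM at 30 months (median 0.836). It was higher in 7 of 8 mice, all but mouse 43, with a change of 0.68 ± 0.21 (SE). It shares 4.57% of its exon bases with Gca on the opposite strand, and the kit does not mark the strand, so reads over the shared bases cannot be assigned to either gene by strand. The ELK genes were low. Kcnh3 ranged from 0.534 to 1.29 CPM (median 0.969) and from 0.535 to 1.30 CPM (median 0.855). Kcnh4 had 44 reads at 24 months and 25 at 30 months, 0.107 to 0.283 CPM (median 0.190) and 0.0322 to 0.315 CPM (median 0.0841), lower in 7 of 8 mice, and did not pass the filter on low counts.

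The third Kv3 gene, Kcnc2, which encodes Kv3.2, had 0.537 to 1.20 CPM at 24 months (median 0.718) and 0.521 to 2.38 CPM at 30 months (median 1.16). It was higher in 7 of 8 mice, all but mouse 43, with a change of 0.62 ± 0.24 (SE), which was 0.37 with the muscle level held. Kv4 channels carry the fast transient current of heart and sensory cells. Kcnd1 (Kv4.1) had 2.04 to 3.34 CPM (median 2.56) and 1.51 to 2.77 CPM (median 2.40), with a change of -0.16 ± 0.16 (SE), although 5 mice were higher. Kcnd3 (Kv4.3) had 1.21 to 2.18 CPM (median 1.40) and 1.17 to 1.76 CPM (median 1.56), and Kcnd2 (Kv4.2) 0.0283 to 0.534 CPM (median 0.156) and 0.0689 to 0.335 CPM (median 0.192).

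Of the other Kv7 genes, Kcnq1, the heart and epithelial subunit, had 1 to 2.03 CPM at 24 months (median 1.42) and 1.53 to 3.48 CPM at 30 months (median 1.84). Its locus also holds the long antisense RNA Kcnq1ot1, which had a mean of 506 reads against 53.3 for Kcnq1 and shares 121 exon bases with it, so reads over those bases cannot be assigned by strand. Kcnq3, a subunit of the neuronal M-type current, had 1.38 to 3.86 CPM (median 2.33) and 1.76 to 3.83 CPM (median 2.58).

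Over the whole family, 25 of the 36 members passed the filter on low counts. At an unadjusted p under 0.05, 3 were higher at 30 months (Kcnc2, Kcnh7 and Kcns3) and 3 lower (Kcng1, Kcng4 and Kcnh6), beside 4.86% and 7.18% of all genes in these directions. Without mouse 43 there were 6 higher and 5 lower members, and without mouse 64 there were 5 higher. In CPM, 2 members were lower in all 8 mice (1.69% of all genes tested were) and 0 were higher in all 8 (1.08%). The median log2 change of the tested members was 0.11, with 15 positive and 10 negative, beside 0.01 for all genes, and it was -0.05 without mouse 13 and -0.06 with the muscle level held. Of the 25 members, 10 changed sign under at least 1 of the alternative settings, Kcna7, Kcnc1, Kcnc4 and Kcnq5 among them, and 15 kept it, among them all 4 Kv6 genes, Kcnh6, Kcns3, Kcnc2 and Kcnh7.

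**Figure D4:**
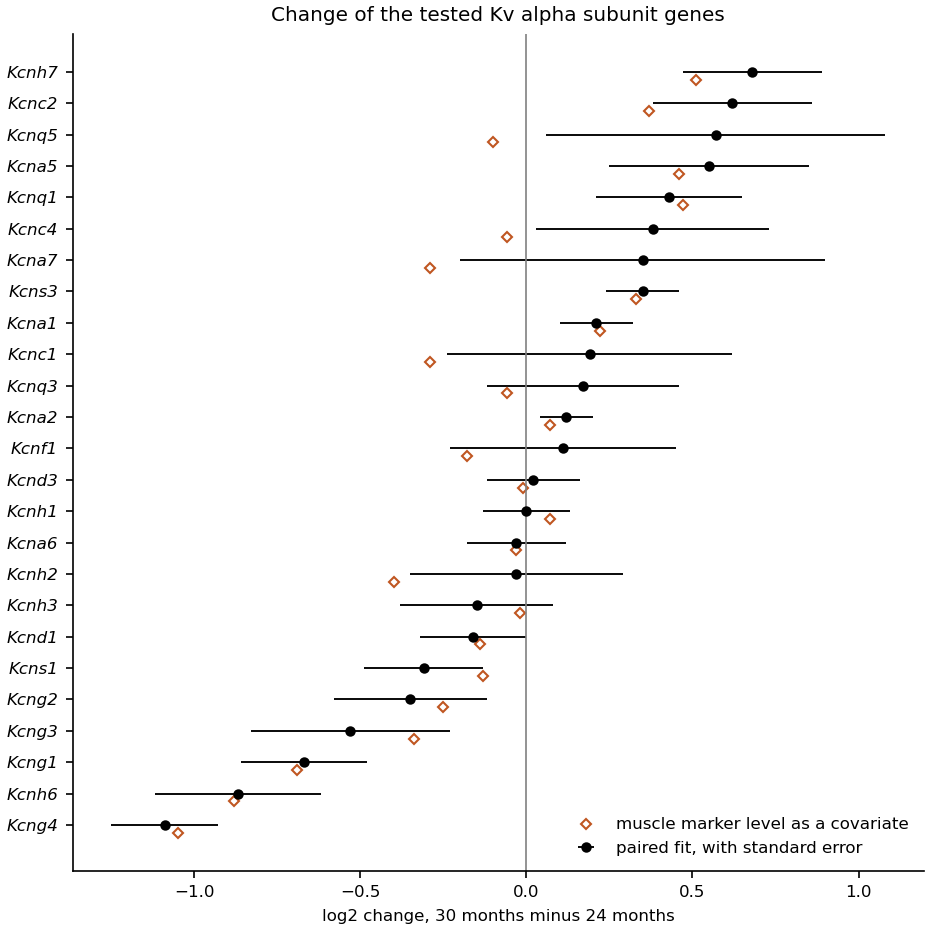
Log2 change from 24 to 30 months of the 25 tested members in the paired fit (black, bars show the standard error) and with the skeletal muscle marker level as a covariate (open orange). Kcng4 has the lowest value in both fits (-1.09 and -1.05), and the values of Kcna7, Kcnc1, Kcnc4, Kcnq5, Kcnf1, Kcnq3 and Kcnd3 go below 0 once muscle is held. The open orange values are drawn without their standard errors.

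Accessory subunits bind Kv channels and alter their gating or transport, and 10 of the 13 listed were tested. At an unadjusted p under 0.05, 2 were higher (Kcnab1 and Kcne4) and 0 lower, with a median log2 change of 0.04. The 4 highest of them per length were Kcne4, Kcnab2, Kcne3 and Kcnab3. Kcne4, a single-span subunit that dampens Kv1 and Kv7 currents, had 2.23 to 4.14 CPM at 24 months (median 3.53) and 2.76 to 6.98 CPM at 30 months (median 4.94), with a change of 0.44 ± 0.14 (SE) and 7 mice higher. Kcnab2, a cytoplasmic beta subunit of Kv1 channels, changed by 0.31 ± 0.18 (SE) with 7 mice higher, Kcne3, the partner of Kv3.4 in muscle, by 0.11 ± 0.13 with 5 higher, and Kcnab3, another beta subunit, by -0.04 ± 0.13 with 5 higher.

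In the remaining potassium channel families 0 genes passed the adjusted threshold. Of the 9 inward rectifiers tested, 0 were higher and 1 was lower at an unadjusted p under 0.05, with a median change of -0.13. That one was Kcnj16, lower in 8 of 8 mice, with 7.46 to 14.4 CPM (median 9.42) and then 1.07 to 7.67 CPM (median 6.11). Of the 8 two-pore channels tested, 2 were higher (Kcnk13 and Kcnk5) and 2 lower (Kcnk2 and Kcnk6), with a median of 0.10. Of the 8 channels gated by calcium or sodium, 0 passed in either direction and the median was 0.02. All of these shares are set against 4.86% higher and 7.18% lower over all genes.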

How the data were processed

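RNA-seq libraries were made by the authors from total RNA of ear clips with a TruSeq RNA kit (v2), which does not mark the strand. The submitters' processing notes name CASAVA 1.8.4, TopHat2 2.1.0, HTSeq 0.6.1p1 and the mm10 genome. The deposited values are raw read counts per Ensembl gene, not normalized, with replicates kept apart. Lines naming no gene (5) held 18.7% to 21.1% of the reads and were left out. GENCODE M21 (GRCm38) gave symbols, positions and exon lengths for 45143 of the 45706 identifiers.

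The age comparison used edgeR 4.0.16 in R 4.3.3, with TMM library sizes, the filterByExpr filter and the quasi-likelihood test. Each mouse had its own term in the model, because both libraries of a number come from the same animal. The correlation of deviations from the age means was -0.43 to 0.32 within a mouse (median -0.02) and -0.01 between mice (median). Benjamini-Hochberg adjusted values were compared with 0.05. The block ties libraries by animal, and no technical repeats were analysed here, so the spread includes how each clip was taken. Alternatives were DESeq2 1.42.0, its size factors, no filter, no replicate block and each mouse left out. Fits with the marker level of skeletal muscle (log2 of the summed CPM of 12 markers) or Schwann cells as a term were added after seeing the values. The script was tested on simulated data for the comparison of 30 with 24 months: among 21526 genes, 186 of 200 with a built-in change were recovered with the correct sign, and 6 without one were called. The simulated counts held no difference between mice and no shift in tissue content shared by many genes. This tests the code, and the recovery does not carry over to the real libraries. Levels and figures used Python 3.11.15 with numpy 2.4.6, pandas 2.3.3 and matplotlib 3.10.9.

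The members, gene lists and marker lists were chosen with earlier results of these data known. Named with their change were the 12 members with the highest mean RPKM and any that moved one way in at least 7 of 8 mice; values in every library were given for the 4 with the widest spread of log2 CPM among those with a mean of at least 0.5 CPM (Kcna7, Kcnq5, Kcnc1 and Kcnh6), and for Kcng4, which was chosen after its values were seen. Changes of single mice use log2(CPM + 0.05). The upper level given for a count of 0 covers counting error only. The standard errors come from the fits and include how far the mice differed in their change. Protein sequences were not used here.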

Additional observations from a re-analysis of the deposited data

Results flagged for a closer look

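Of the 60 sets of 8 values examined (30 members at each age), 12 held a library far from the other 7 by Dixon's criterion. About 3 would be expected by chance if the sets were independent and their values normal. CPM, some of them from few reads, need not be so, and all flags but that of Kcna2 were high values. The excess is therefore not read as a sign of unusual libraries. Mouse 43 was the highest at 24 months for Kcna7 (16.9 CPM, next 8.82), Kcnq5 (9.92, next 3.81), Kcna5 (1.26, next 0.75) and Kcnd2 (0.534, next 0.229), in the library with the most skeletal muscle RNA, and the highest at 30 months for Kcng3 (0.930, next 0.498). Mouse 50 was the highest at 30 months for Kcna3 (0.945, next 0.298) and Kcng2 (0.504, next 0.303), in the library rich in T cell markers. Whether muscle or T cells gave these values of mice 43 and 50 was not tested. The slope of Kcna5 on the muscle level was not past the threshold (0.15 ± 0.16, SE). Kcnd2 did not pass the filter on low counts and had no slope fitted. Mouse 21 was the highest at 24 months for Kcns1 (9.20, next 6.75) and at 30 months for Kcna6 (10.7, next 6.72) and Kcnv1 (0.427, next 0.189). Mouse 29 was the highest at 24 months for Kcna4 (0.425, next 0.25), and mouse 13 was the lowest at 24 months for Kcna2 (22.4, next 27.5).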

How the results depend on the processing

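The number of genes called between the ages depended on the tool. It was 0 in the paired edgeR fit, 240 with DESeq2's Wald test, 3 with no replicate block, where the pairing is ignored, and 8 with skeletal muscle as a covariate, a fit added after seeing the data. Of the members, 0 were called, and 1 (Kcng4) both with DESeq2 and with no replicate block. Without the block 1708 genes were higher at an unadjusted p under 0.05, against 1047. With each mouse left out in turn, 759 to 1930 genes were higher and 1035 to 1856 lower, and 5 to 11 members passed, 2 to 6 of them higher and 3 to 5 lower. The most came without mouse 43. The median change of the tested members went from -0.05 (without mouse 13) to 0.21 (without mouse 43). The slope on muscle was positive for 691 genes and 5 members, and for 250 to 806 genes and 3 to 5 members with a mouse left out, lowest without mouse 43. The slope on Schwann cells was called for 1 gene, and for 0 to 1 with a mouse left out. Detected members numbered 31 at a limit of 0.05 CPM, 23 at 0.5 CPM, 25 above 0.1 CPM in every library, and 29 to 30 with a mouse left out. Kcna1 led the summed RPKM in every setting (20.5% to 23.3%). All 325 values of single members under the alternatives stayed within 1 SD of the main value. That SD is a spread of single values and wider than the standard error. Passing was therefore likely beforehand, and stability of the estimates is not read from it. The change of Kcnq5, for example, was 0.57 ± 0.51 (SE) in the main fit and -0.10 with muscle held. The sign changed for 10 members: Kcna6, Kcna7, Kcnc1, Kcnc4, Kcnd3, Kcnf1, Kcnh1, Kcnh2, Kcnq3 and Kcnq5. Some of them, such as Kcnd3 (0.02 ± 0.14, SE) and Kcnh1 (0.00 ± 0.13), were near 0 in the main fit. Genes with 0.1 CPM rest on about 3 reads a library, and the filter on low counts kept 11 members out of the main fit. With no filter 7 members passed an unadjusted p of 0.05 (3 higher and 4 lower), and the median change of the members tested was 0.01.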
